A study of Mus musculus with 6 samples.

Results

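Glycolysis splits glucose into pyruvate in the cytosol, and lactate dehydrogenase then turns pyruvate into lactate. Endothelial cells (ECs) rely on this route for much of their ATP, and it fuels the migration and division of sprouting vessels. Many of its genes are classical targets of the hypoxia-inducible factors, the transcription factors that become stable when oxygen is low. The 10 genes described here lie along the route from uptake to lactate, without the steps of phosphofructokinase and phosphoglycerate mutase. They are Slc2a1, which encodes the glucose transporter GLUT1, the enzymes Hk1, Gpi1, Aldoa, Tpi1, Gapdh, Pgk1, Eno1 and Pkm in the order of their steps, and Ldha. They were chosen by name from 47729 genes, by matching the gene identifiers of the count tables to mouse symbols, and all 10 were found.

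Expression was read by bulk RNA-seq of CD144-enriched cells, a fraction pulled from ischemic hind limb muscle with beads against VE-cadherin. Each mouse was fed a high-fat high-sucrose diet, underwent hind limb ischemia (HLI) surgery on day 0, received adenovirus in the muscle on days 1 and 4 per the labels, and gave tissue after 1 week. In the methods of the study the second injection falls later. The 3 groups, with 2 libraries each, were WT mice given Ad-GFP (WT + GFP), Leene-KO mice given Ad-GFP (KO + GFP) and Leene-KO mice given Ad-LEENE (KO + LEENE). The KO is a CRISPR/Cas9 deletion of a chromosome 14 region in C57BL/6J mice, carried by every cell type, and Ad-LEENE delivers the human RNA. The labels give neither age nor sex, and do not say whether the libraries of a group came from different mice.

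The libraries held 1770992 to 5602603 reads assigned to genes, in unnormalized counts. Levels are given below in CPM, reads brought to the same total per library with TMM factors, and 3 reads, taken as the detection floor, corresponded to 0.695 to 1.17 CPM. Both libraries of a group carry the same facility sample number in the file headers, so P values compare libraries and may lack the variation between mice. The deleted noncoding gene, GFP and human LEENE were not analysed here, so the genotype labels were not checked against them. Mitochondrially encoded genes took 50.1% and 50.9% of the reads for WT + GFP and 33.6% to 34.3% in the KO libraries, and the 20 most abundant genes took 66.4% and 66.5% against 52.4% to 57.5%. With the mitochondrially encoded genes left out, Gpi1, Aldoa and Pkm kept their direction and call in all 3 comparisons, and Eno1 failed the filter. The part of the other differences in the results was not tested. Across all genes the groups lay far apart. The log2 CPM of the libraries of a group correlated across genes at 0.973 to 0.982. The squared differences of their reads had a median of 1.17 to 1.23 times that of counting noise. Between the first libraries of WT + GFP and KO + GFP the correlation was 0.304 and this ratio of squared differences 67.9. Genes are not independent replicates, and whether library complexity had a part in the folds between groups was not tested. Of the 8903 genes that passed the filter on low counts, 3931 (44.2%) had at most 3 reads in both libraries of at least 1 group. Genes with an adjusted P value under 0.05 in the quasi-likelihood test of edgeR are called DEGs.

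Most members were barely detected. Only 4 of the 10, Gpi1, Aldoa, Eno1 and Pkm, passed the filter and were tested, and the other 6 had at most 9 reads in any library. Together the 10 genes took 92 and 62 reads for WT + GFP, then 2595 and 1733 for KO + GFP, then 267 and 318 for KO + LEENE. In CPM of all reads assigned to genes, without TMM scaling, this was 20.3 (95% exact interval, 16.4 to 24.9) and 15 (11.5 to 19.3) for WT + GFP. It was 463 (446 to 481) and 478 (456 to 501) for KO + GFP and 151 (133 to 170) and 178 (159 to 198) for KO + LEENE. These intervals cover counting error only. The sum was carried by different genes in each group. Of the member reads, Pkm held 55.4% and 59.7% for WT + GFP, 98.4% in each KO + GFP library, then 1.12% and 0% for KO + LEENE. Without Pkm the members gave 41 and 25 reads for WT + GFP, then 41 and 28 for KO + GFP, then 264 and 318 for KO + LEENE.

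**Figure D1:**
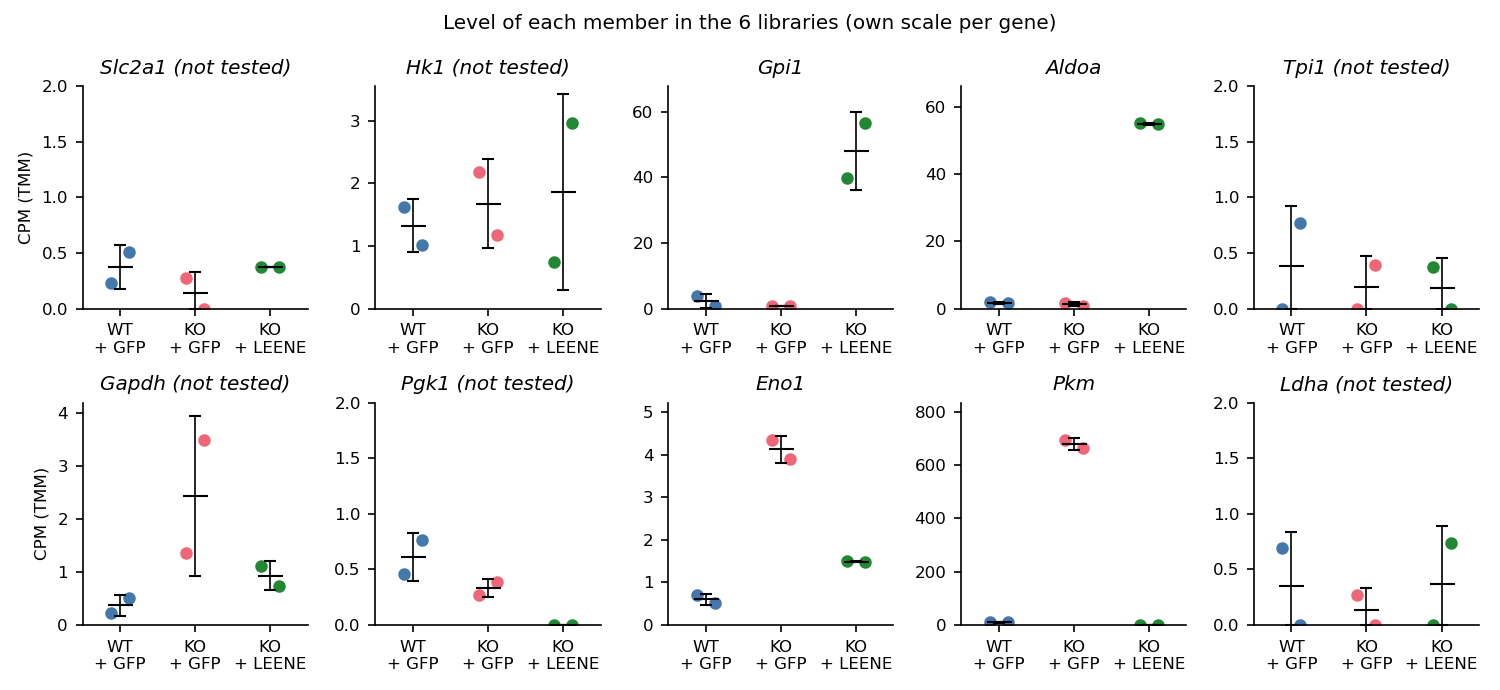
Level of each of the 10 members in CPM (vertical axis, TMM-scaled, own scale per gene, starting at 0) in the 3 groups (horizontal axis). Points are libraries, and the bars give the mean and SD of 2 libraries. Pkm stood at 695 and 663 CPM in KO + GFP, Gpi1 and Aldoa between 39.7 and 56.6 CPM in KO + LEENE, and the 6 members marked as not tested reached at most 3.5 CPM.

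The promoters of 4 members are shown because the first 3 lead the changes described below and the last, Ldha, is the textbook hypoxia target that was hardly detected. Each line gives the 250 bases before a RefSeq transcription start on GRCm38.p6, read 5′ to 3′ along the gene's strand. Capitals mark a hypoxia response element core (ACGTG or GCGTG, on either strand), and where cores overlap they run together as the E-box CACGTG. For Aldoa, Pkm and Ldha, which have more than 1 annotated start, the window with the most cores is shown, for Aldoa the upstream one of 2 windows that tie and overlap.
Gpi1 (chr7:34230337-34230586, minus strand): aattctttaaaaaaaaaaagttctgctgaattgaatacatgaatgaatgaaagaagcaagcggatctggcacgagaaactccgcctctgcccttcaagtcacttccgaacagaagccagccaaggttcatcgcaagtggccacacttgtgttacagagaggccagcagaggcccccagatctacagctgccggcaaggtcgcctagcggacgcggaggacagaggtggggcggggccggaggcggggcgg
Aldoa (chr7:126799255-126799504, minus strand): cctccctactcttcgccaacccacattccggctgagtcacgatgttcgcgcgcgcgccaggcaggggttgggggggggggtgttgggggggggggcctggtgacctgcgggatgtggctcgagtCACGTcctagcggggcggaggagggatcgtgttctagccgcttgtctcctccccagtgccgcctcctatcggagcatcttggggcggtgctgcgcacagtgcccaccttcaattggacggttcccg
Pkm (chr9:59656977-59657226, plus strand): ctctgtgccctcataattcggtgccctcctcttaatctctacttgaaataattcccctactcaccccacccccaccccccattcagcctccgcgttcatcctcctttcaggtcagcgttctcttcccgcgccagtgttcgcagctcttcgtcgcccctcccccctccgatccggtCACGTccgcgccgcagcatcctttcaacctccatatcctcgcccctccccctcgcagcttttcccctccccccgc
Ldha (chr7:46845554-46845803, plus strand): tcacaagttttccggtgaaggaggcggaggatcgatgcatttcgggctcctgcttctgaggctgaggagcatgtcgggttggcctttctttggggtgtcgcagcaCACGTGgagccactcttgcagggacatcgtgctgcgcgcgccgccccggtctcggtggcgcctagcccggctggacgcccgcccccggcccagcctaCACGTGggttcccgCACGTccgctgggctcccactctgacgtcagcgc

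The windows searched for motifs ran from these 250 bases to 50 bases after the start. The table held 17 such windows for the 10 members, and 12 of them, from 8 members, contained at least 1 core. Windows of 1 gene can overlap, as for Aldoa and Eno1, so the same site can count in more than 1 window. Of all 32851 promoter windows, 43.8% contained a core of either form, 19.6% contained ACGTG, 32.4% contained GCGTG and 7.15% contained the E-box. No core lay in the windows of Gpi1 and Tpi1. The first Ldha window held 7 cores, with each E-box counted once per strand, and its E-boxes began at positions -145 and -48 from the start. Aldoa had 1 core in 2 of its 3 windows, and Pkm had 2 cores in 1 of its 2 windows. A match is a stretch of letters and does not show that a factor binds there.

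**Figure D2:**
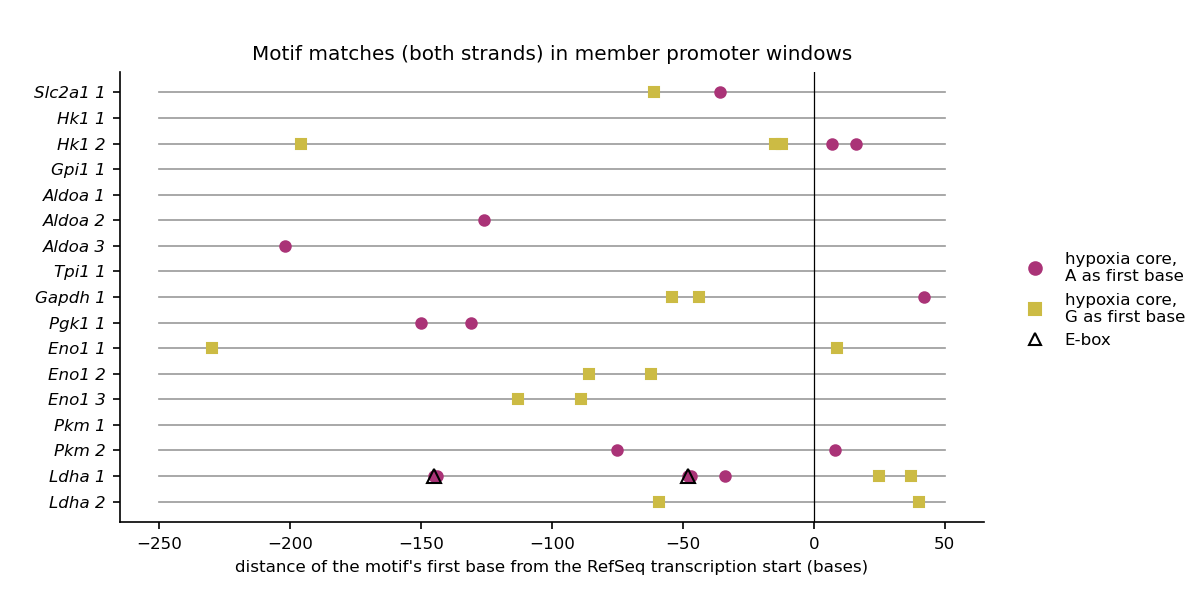
Matches to the motifs in the 17 promoter windows of the 10 members. The horizontal axis is the distance in bases of a match from the RefSeq transcription start, each row is 1 window, and symbols mark the 2 forms of the hypoxia core and the E-box. Ldha window 1 holds 7 cores, with each E-box counted once per strand, and the Gpi1 and Tpi1 windows hold none.

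Transcripts of the glucose transporters were few. Slc2a1 gave 1 and 2 reads for WT + GFP, then 1 and 0 for KO + GFP, then 1 and 1 for KO + LEENE. Summed over libraries, this was 0.365 CPM for WT + GFP (95% exact Poisson interval, 0.0752 to 1.07), 0.16 for KO + GFP (0.00405 to 0.892) and 0.372 for KO + LEENE (0.0451 to 1.34). The groups overlapped within counting error, and a difference was not detectable at this depth. Slc2a3, encoding GLUT3, had read counts of 3 and 6 for WT + GFP, then 9 and 7, then 0 and 0. It was not tested in the filtered fit. Without a filter it was lower in KO + LEENE, by at least 2.32-fold against KO + GFP (adjusted P = 0.000503, edgeR), and against WT + GFP its adjusted P value was 0.0288 (edgeR). Slc2a4, the insulin-responsive GLUT4 of muscle and fat, had at most 2 reads in any library.

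Hk1, the hexokinase that traps glucose as glucose 6-phosphate, gave 7 and 4 reads for WT + GFP, then 8 and 3 for KO + GFP, then 2 and 8 for KO + LEENE. Its libraries overlapped in every pair of groups, with pooled levels of 1.34 CPM (0.668 to 2.39), 1.76 CPM (0.879 to 3.15) and 1.86 CPM (0.892 to 3.42). Hk2 had read counts of 4 and 5 for WT + GFP, then 0 and 2, then 1 and 0, and Hk3 never exceeded 1 read in a library.

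Gpi1 and Aldoa stood out in KO + LEENE. Gpi1, which converts glucose 6-phosphate to fructose 6-phosphate (ENSMUSG00000036427, chromosome 7, 34201330 to 34230336 on GRCm38), gave 16 and 3 reads for WT + GFP, then 3 and 2 for KO + GFP, then 106 and 153 for KO + LEENE. This was 2.24 ± 2.08, 0.797 ± 0.027 and 48.1 ± 11.9 CPM (mean ± SD, n = 2). Both KO + LEENE libraries lay above every other library. With KO + GFP at the floor, Gpi1 was higher by at least 48.6-fold with KO + LEENE than with KO + GFP (adjusted P = 6.76e-53, edgeR). Against WT + GFP its estimate was a log2 fold change of 4.36 ± 0.269 (SE, adjusted P = 1.18e-52, edgeR), and it was 5.9 without the first WT + GFP library and 3.69 without the second. Between KO + GFP, at the floor, and WT + GFP the libraries overlapped and the difference was not called (adjusted P = 0.0515, edgeR). This rested on the first WT + GFP library, since the adjusted P value was 0.98 without it and 0.00543 without the second, where Gpi1 was lower in KO + GFP (edgeR). It also passed in edgeR without the first or the second KO + LEENE library (adjusted P = 0.041 and 0.0384). An unnamed gene on the opposite strand overlaps 11.5% of the exon bases of Gpi1, and unstranded counting cannot assign reads there. It had read counts of 55 and 59 for WT + GFP, then 55 and 29, then 24 and 22, and none of its overlap fell in the last 500 exon bases of Gpi1.

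Aldoa, the aldolase that splits fructose 1,6-bisphosphate (ENSMUSG00000030695, chromosome 7, 126795234 to 126809108), gave 8 and 6 reads for WT + GFP, then 6 and 2 for KO + GFP, then 147 and 148 for KO + LEENE. The corresponding levels were 1.69 ± 0.226, 1.2 ± 0.604 and 54.9 ± 0.265 CPM. Both KO + LEENE libraries again lay above the other 4, while the WT + GFP and KO + GFP libraries overlapped. The log2 fold change was 5.38 ± 0.317 in KO + LEENE against KO + GFP (adjusted P = 3.95e-57, edgeR) and 4.98 ± 0.275 against WT + GFP (adjusted P = 1.32e-63, edgeR). The first of these was 6.07 without the first KO + GFP library and 5.04 without the second. By KO the estimate was -0.40 ± 0.673, with an interval of -1.72 to 0.92 (adjusted P = 0.612, edgeR). Its isoform Aldoc reached at most 5 reads in a library.

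Tpi1, Gapdh and Pgk1, which carry the triose phosphates to 3-phosphoglycerate, were near the floor. Tpi1 had read counts of 0 and 3 for WT + GFP, then 0 and 1, then 1 and 0. Pgk1, which makes the first ATP of the pay-off phase, gave 2 and 3 reads for WT + GFP, then 1 and 1 for KO + GFP, then 0 and 0 for KO + LEENE, where the 0 reads allow up to 0.686 CPM. No fold is given for either gene, since both groups of each comparison were at or under the floor.

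Gapdh, often used as a reference gene, gave 1 and 2 reads for WT + GFP, then 5 and 9 for KO + GFP, then 3 and 2 for KO + LEENE. The KO + GFP libraries were the highest, at 1.36 and 3.5 CPM, and the WT + GFP libraries were under the floor, at 0.232 and 0.511 CPM. Gapdh was not tested in the filtered fit, and without a filter its adjusted P value for KO + GFP against WT + GFP was 0.0146 (edgeR). This count is uncertain. Every 90-base stretch tried along the last 500 bases of its transcript matched elsewhere in the GRCm39 genome with at most 1 mismatch, at 120 other places, and only uniquely aligned reads were counted. Its 4 annotated copies in the count tables had read counts of 20 and 9 for WT + GFP, then 39 and 22, then 21 and 21. With these added, Gapdh had a log2 fold change of 1.62 by KO (adjusted P = 1.28e-06, edgeR) and 1.16 in KO + LEENE against WT + GFP (adjusted P = 0.00215, edgeR). The same limit applied in part to Pgk1 and Eno1, with 81% and 78.6% of stretches matching elsewhere, and to Tpi1 (25%), Pkm (19%), Ldha (11.9%) and Gpi1 (7.14%). Slc2a1, Hk1 and Aldoa had no such stretch.

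Eno1, the enolase that forms phosphoenolpyruvate (ENSMUSG00000063524, chromosome 4, 150236721 to 150248879), gave 3 and 2 reads for WT + GFP, then 16 and 10 for KO + GFP, then 4 and 4 for KO + LEENE. Its levels were 0.603 ± 0.13, 4.12 ± 0.327 and 1.49 ± 0.0143 CPM, and the libraries of the groups did not overlap. Eno1 was higher by at least 5.63-fold with KO + GFP than with WT + GFP, which was at the floor (adjusted P = 4.81e-05, edgeR). Between KO + LEENE and KO + GFP its log2 fold change was -1.46 ± 0.591 (adjusted P = 0.0213, edgeR). This second call ended under 7 of the 12 alternatives that tested it. Its adjusted P value was 0.121 by DESeq2, 0.0594 with the replicate number as a block in edgeR, and 0.653 in edgeR with library size only. It also ended in edgeR without the first KO + GFP library (adjusted P = 0.0836), without the first KO + LEENE library (0.0932) and without the second (0.0983). The call against WT + GFP was not made (adjusted P = 0.185, edgeR). The near-identical gene Eno1b had read counts of 17 and 15 for WT + GFP, then 26 and 20, then 8 and 9. With the reads of annotated copies added, the log2 fold change of Eno1 by KO was smaller, at 1.35 (adjusted P = 3.84e-05, edgeR). It was then -1.3 in KO + LEENE against KO + GFP (adjusted P = 0.000382, edgeR) and 0.0481 against WT + GFP (adjusted P = 0.932, edgeR). The muscle isoform Eno3 was higher in KO + GFP too, with read counts of 1 and 1 for WT + GFP, then 24 and 16, then 1 and 0, at least 8.72-fold above WT + GFP (adjusted P = 2.17e-10, edgeR).

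Pkm, the pyruvate kinase whose splice forms PKM1 and PKM2 share 1 gene, showed the widest range of the members (ENSMUSG00000032294, chromosome 9, 59656368 to 59679375). It gave 51 and 37 reads for WT + GFP, then 2554 and 1705 for KO + GFP, then 3 and 0 for KO + LEENE. In CPM this was 10.6 ± 1.67, 679 ± 22.3 and 0.562 ± 0.795. The groups lay far apart and their libraries did not overlap. From WT + GFP to KO + GFP, Pkm rose by a log2 fold change of 5.98 ± 0.108 in edgeR, with an adjusted P value too small to be written by the software. Pkm was lower by at least 608-fold with KO + LEENE than with KO + GFP (adjusted P = 1.66e-316, edgeR) and at least 9.53-fold lower than in WT + GFP (adjusted P = 6.57e-16, edgeR). The direction and the call of these 3 comparisons held under every alternative that tested them. The fitted log2 fold change of KO + LEENE against KO + GFP was -14.2 without the first KO + LEENE library and -9.19 without the second, and against WT + GFP it was -8.2 and -3.21, so the folds from the floor are given as bounds. The counts are per gene, so the splice forms were not told apart. Pklr, the pyruvate kinase of liver and red cells, had at most 2 reads in any library.

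Ldha, which reduces pyruvate to lactate, gave 3 and 0 reads for WT + GFP, then 1 and 0 for KO + GFP, then 0 and 2 for KO + LEENE. The pooled intervals, 0.0752 to 1.07, 0.00405 to 0.892 and 0.0451 to 1.34 CPM, overlapped, and no difference was detectable at this depth. Ldhb was listed at 0 reads in all 6 libraries, which allows up to 0.448, 0.59 and 0.686 CPM in the groups.

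Counted by direction in KO + GFP against WT + GFP, 2 of the 4 tested members rose and 0 fell. Among all tested genes 70.1% were DEGs there, 34.2% higher and 35.9% lower. In KO + LEENE against KO + GFP, Gpi1 and Aldoa were higher, and Eno1 and Pkm lower. The background was 67.8% DEGs, 32.8% higher and 34.9% lower. In KO + LEENE against WT + GFP, 2 members were higher and 1 lower, beside 70.7% DEGs among all genes, 33.9% higher and 36.9% lower. With 4 members tested, nothing is read from these counts against the background. The median log2 fold change of the 4 tested members was 1.15 by KO, 1.96 in KO + LEENE against KO + GFP and 2.8 in KO + LEENE against WT + GFP. With genes at the floor set to their bounds it was 1.05, 1.96 and 2.69. These medians describe the members that passed the filter and support nothing, because Gpi1 and Aldoa passed through their reads in KO + LEENE and Eno1 through those in KO + GFP. Over all tested genes it was -0.0876, -0.0102 and -0.106. The comparisons share groups and are not independent of each other.

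The sizes of the changes can be read against the same background. The shares below count the fitted estimates of all tested genes, and members over a group at the floor are left out, since their folds are bounds. A log2 fold change at least as large as that of Pkm by KO, 5.98, was seen in either direction in 14.2% of tested genes. In KO + LEENE against KO + GFP the share was 19% for Aldoa (5.38) and 61.3% for Eno1 (-1.46). In KO + LEENE against WT + GFP it was 19.7% for Aldoa (4.98) and 24.3% for Gpi1 (4.36), and for Aldoa by KO (-0.40) it was 85%. The order KO + LEENE, WT + GFP, KO + GFP, from high to low, was found for Gpi1 and Aldoa and for 18.1% of tested genes. That of Pkm, with KO + GFP highest and KO + LEENE lowest, was found for 18%.

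**Figure D3:**
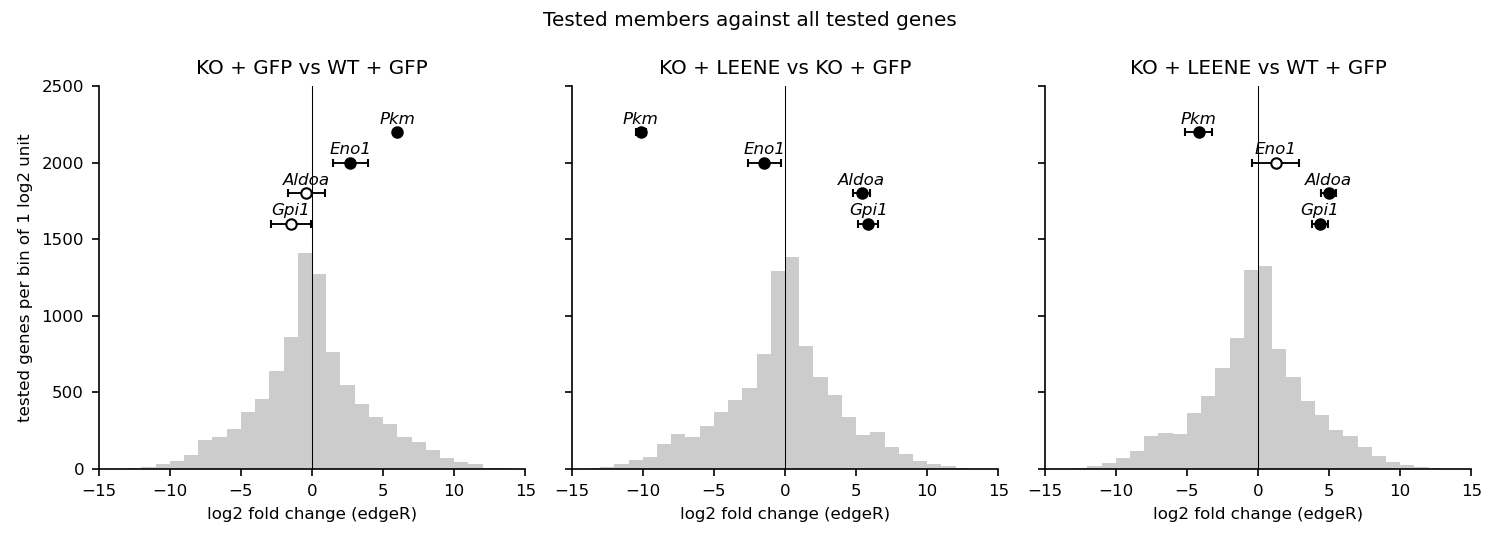
Log2 fold change (horizontal axis) of the 4 tested members over the distribution of all 8903 tested genes (grey, vertical axis, genes per bin of 1 log2 unit) in the 3 comparisons. Points are edgeR estimates with 95% intervals, filled where the adjusted P value was under 0.05, and their height carries no value. Pkm lies at -10.15 in KO + LEENE against KO + GFP, an estimate over a group at the floor, and Aldoa lies at 5.38 there.

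The rest of the pathway was taken from a list of 17 further genes, isoforms and missing steps. Of these, 13 stayed at or under 9 reads in each library, and Pgam1, Pgam2 and Ldhb had 0 reads in all 6. For Pgam1, 97.6% of the 90-base stretches matched elsewhere in the genome, for Ldhb 52.4% and for Pgam2 0%, and the part of such matches in the 0 reads was not tested. The 4 that were tested were the phosphofructokinases Pfkl, Pfkm and Pfkp, which catalyze the committed step, and Eno3. By KO, 3 were higher and 1 lower. In KO + LEENE against KO + GFP all 4 tested genes were lower, and against WT + GFP 1 was higher and 1 lower. Over all tested genes 34.2% were higher and 35.9% lower by KO, 34.9% were lower in KO + LEENE against KO + GFP, and 33.9% were higher and 36.9% lower against WT + GFP. With 4 genes tested nothing is read from the difference. Pfkl, Pfkp and Eno3 passed the filter through their reads in KO + GFP, so their directions against that group support nothing. The higher one against WT + GFP, Pfkp, lost its call without the second WT + GFP library (adjusted P = 0.0588, edgeR) and without the second KO + LEENE library (0.114).

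The phosphofructokinase isoforms differed in where they were found. Pfkm, the muscle form, gave 85 and 73 reads for WT + GFP, then 32 and 12 for KO + GFP, then 3 and 1 for KO + LEENE. By KO its log2 fold change was -1.45 ± 0.26 (adjusted P = 7.43e-08, edgeR), and it was lower by at least 5.99-fold with KO + LEENE than with KO + GFP (adjusted P = 4.18e-07, edgeR). Pfkl, the liver form, had read counts of 3 and 1 for WT + GFP, then 142 and 65, then 0 and 1. It was higher by at least 43.7-fold with KO + GFP than with WT + GFP and lower by at least 28.6-fold with KO + LEENE than with KO + GFP. Pfkp, the platelet form, had read counts of 2 and 1 for WT + GFP, then 133 and 83, then 4 and 7, higher by at least 46.8-fold with KO + GFP than with WT + GFP. The gene Pitrm1 on the opposite strand overlaps 74.4% of the last 500 exon bases of Pfkp, and it had at most 3 reads. KO + GFP was thus high for Pfkl, Pfkp, Eno1, Eno3 and Pkm, and KO + LEENE for Gpi1 and Aldoa, with no group high at each step. All of these but Pkm passed the filter through the group where they were high.

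**Figure D4:**
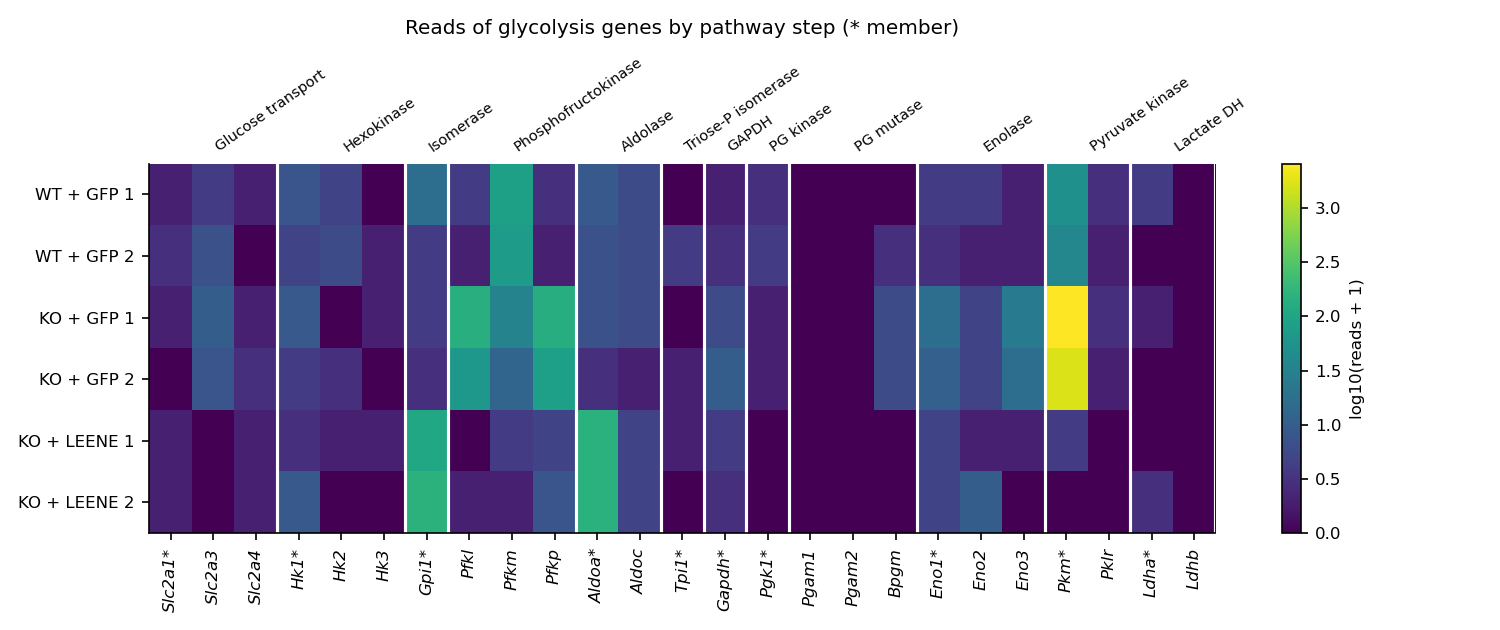
Reads (color, log10 of reads + 1) of the 10 members (asterisk) and 15 other glycolysis genes, in the order of the pathway steps (horizontal axis), in the 6 libraries (vertical axis). The bright cells are Pkm, Pfkl and Pfkp in KO + GFP, Gpi1 and Aldoa in KO + LEENE, and Pfkm and Pkm in WT + GFP.

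Neighboring routes were sparsely covered. Beside the shares of all tested genes given above, 34.2% higher and 35.9% lower by KO, 32.8% and 34.9% in KO + LEENE against KO + GFP, and 33.9% and 36.9% against WT + GFP, their counts are too small to read. Among 17 genes for glycolysis regulators and pyruvate and lactate handling, 3 were tested, with 1 higher and 1 lower in each comparison. Among 7 pentose phosphate genes 2 were tested. By KO 0 were higher and 1 lower, in KO + LEENE against KO + GFP 1 was higher and 0 lower, and against WT + GFP 1 was higher and 1 lower.

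The 20 hypoxia response genes were better covered, with 15 tested. By KO 7 were higher and 3 lower, in KO + LEENE against KO + GFP 8 were higher and 4 lower, and against WT + GFP 7 were higher and 2 lower. The shares of all tested genes were 34.2% higher and 35.9% lower, 32.8% and 34.9%, and 33.9% and 36.9%, and the list was not tested against them. Vegfa, the vascular growth factor, had read counts of 8 and 2 for WT + GFP, then 23 and 19, then 799 and 788. Adm, encoding the vasodilator adrenomedullin, had read counts of 1 and 0 for WT + GFP, then 3 and 1, then 174 and 182. Both were highest in KO + LEENE, as Gpi1 and Aldoa were. Higd1a, a mitochondrial protein induced by hypoxia, had read counts of 1 and 1 for WT + GFP, then 1581 and 1047, then 2 and 0, highest in KO + GFP as Pkm was. Other genes had neither pattern. Bnip3 had read counts of 113 and 111 for WT + GFP, then 0 and 0, then 0 and 0, and Mxi1 had 60 and 49, then 12 and 3, then 32 and 34. The list thus held genes of both patterns and of others, and its members did not move as 1 block.

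The members were not alone in varying between groups. Of 14 housekeeping genes that are not members, 10 differed by 10-fold or more between their highest and lowest group mean. By the same measure 10 of the 13 that were tested did, beside 42.2% of all tested genes, and the list was not tested against that share. Ywhaz gave 30 and 42 reads for WT + GFP, then 22574 and 14811 for KO + GFP, then 11 and 15 for KO + LEENE, and Hprt had 470 and 408, 1 and 0, and 1 and 0.

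Cell type markers also differed between the groups. The fibroblast list (5 genes) summed to 63 to 68.5 CPM for WT + GFP, then 20652 to 22525 for KO + GFP and 49.8 to 52.9 for KO + LEENE, and the macrophage list (9 genes) to 31.3 to 42.4, 1138 to 1284 and 8.87 to 11.6 CPM. Of these lists, 4 of 5 and 4 of 9 genes were above 3 reads in both KO + GFP libraries, and as many in both WT + GFP libraries. Like Pkm, both were highest in KO + GFP, and both were lowest in KO + LEENE, where Gpi1 and Aldoa were highest. The sum of the endothelial list, given below, had the same order of groups. Dcn held 76.9% of the fibroblast sum in KO + GFP, whereas Pdgfra averaged 37.8, 34.3 and 24.4 CPM in the groups and Lum had 0 reads in KO + GFP. Of 5 macrophage genes tested, 4 were higher and 1 lower by KO, beside the shares of all tested genes given above. Adgre1 had 1823 and 1060 reads in KO + GFP, whereas C1qb had 32 and 37 for WT + GFP and 1 and 5 for KO + GFP. Csf1r (11 and 4, then 4 and 2) and Itgam (2 and 2, then 0 and 0) did not rise either. Cd68 had 1 read in all libraries together. The endothelial list (14 genes) had 11 genes above 3 reads in both libraries of each group, and summed to 530 to 565, 4069 to 4150 and 227 to 233 CPM. Its most abundant gene was Kdr in WT + GFP, Emcn in KO + GFP, with 81.4% of the sum, and Vwf in KO + LEENE. Its genes did not move together. Of 12 tested, 4 were higher and 4 lower by KO, and 3 were higher and 7 lower in KO + LEENE against KO + GFP, beside the shares of all tested genes given above. Kdr averaged 184 CPM for WT + GFP and 3.52 for KO + GFP. Of the 9 skeletal muscle genes, 1 in each group was above 3 reads in both libraries, and it was Myh1 for WT + GFP (24 and 9 reads), Myh4 for KO + GFP (102 and 65) and Acta1 for KO + LEENE (53 and 43). The muscle list summed to 4.09 to 7.42, 26.8 to 29.9 and 18.5 to 21.4 CPM. The mural list (5 genes) summed to 3.24 to 3.32 CPM for WT + GFP, then 4.67 to 6.8 for KO + GFP and 24.4 to 31.8 for KO + LEENE, and its sum was highest where Gpi1 and Aldoa were. Rgs5 held 79.5% of the sum in KO + LEENE. Of its other genes Myh11 was highest there as well (4.09 CPM on average), whereas Acta2 averaged 0.951, 0 and 0.932 CPM, Pdgfrb 0.731, 0.466 and 0.375, and Cspg4 0.116, 0.719 and 0.37. The neutrophil list (3 genes) ran from 0 to 2.32 CPM. The erythroid list (4 genes) was at 2694 to 2799, 1786 to 1857 and 573 to 603 CPM, and Hba-a1 held 96.5% to 98.4% of the sum in each group. Hba-a2 averaged 22.4, 16.2 and 7.26 CPM, whereas Hbb-bs averaged 4.61, 4.72 and 2.61 and Hbb-bt 17.4, 18.4 and 11. In bulk samples, fewer cells of a type and less RNA per cell cannot be told apart, and the part of cell type makeup in the levels of the members was not tested.

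**Figure D5:**
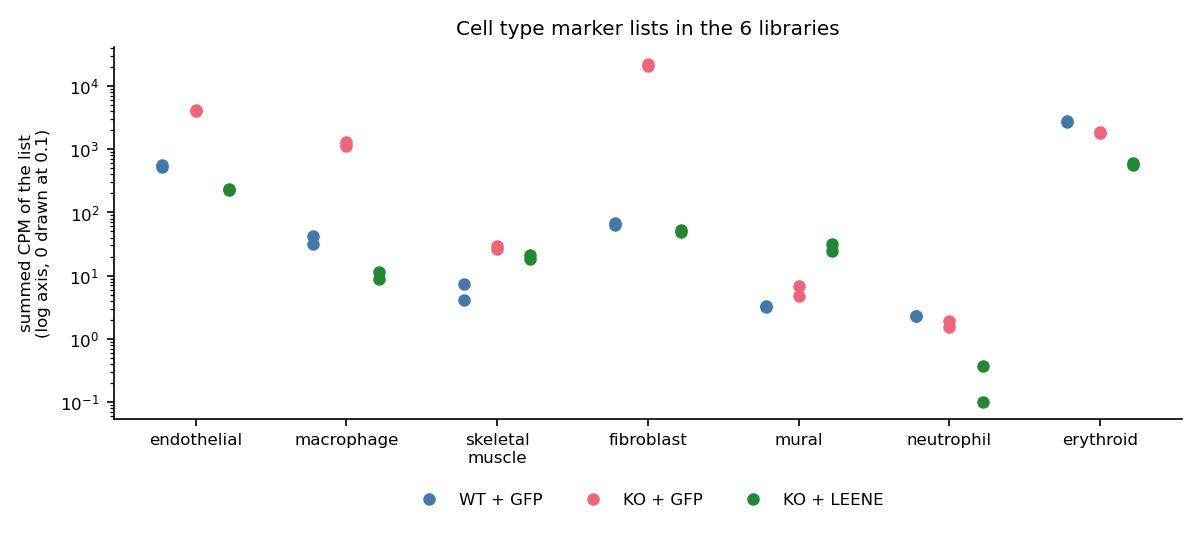
Summed level of 7 cell type marker lists (vertical axis, CPM on a log scale, a sum of 0 drawn at 0.1) in the 6 libraries, colored by group. The fibroblast and macrophage lists are highest in KO + GFP, at 20652 to 22525 and 1138 to 1284 CPM. So are the endothelial and skeletal muscle lists, at 4069 to 4150 and 26.8 to 29.9 CPM.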

How the data were processed

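The 10 members and the other gene lists were chosen with earlier results of these data known. Per the labels, RNA from CD144-enriched cells was reverse transcribed with reagents of a 3′ single-cell kit, leaving out the droplets. The submitters' processing notes name STAR 2.5.4b and bcl2fastq 2.18. Per the file headers, the authors counted uniquely aligned reads over exons with featureCounts 2.0.0, without strand, on Ensembl release 84 of GRCm38. The deposited values are read counts, with no mention of collapsing molecular identifiers. The study's methods name mm9 and TPM, whereas the headers name GRCm38. A symbol was found in a later GENCODE release for 43465 of 47729 identifiers, and 4264 had none.

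The main test was edgeR 4.0.16 (quasi-likelihood, R 4.3.3) on these counts. All 6 libraries entered 1 fit with TMM scaling, filterByExpr defaults (minimum count 10, minimum total 15) and Benjamini-Hochberg adjustment over 8903 genes. The SE of a log2 fold change is its size over the square root of F, and its 95% interval is a normal approximation. The code was tested on simulated counts. Groups come from the sample titles. A fold against a group with at most 3 reads in each library is a lower bound, set against the mean CPM of 3 reads per library in that group. The exact permutation test of 2 against 2 libraries cannot give P under 0.333 and was not run. Copies were sought with blastn 2.17.0 and minimap2 2.31-r1302. Named genes were the members, the other glycolysis genes (2 enter the counts of that list and are not reported here by name), and of each further list among DEGs at most 2 rises and 2 falls, the largest, with a mean of at least 20 CPM. Genes that overlap or copy a member were named where a result turns on them. Further genes were named after their reads were seen. They were Cd68, C1qb, Csf1r, Itgam, Lum, Pdgfra, Bnip3, Mxi1, the mural and erythroid genes and the most abundant gene of a marker list. Protein sequences were not analysed here.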

Additional observations from a re-analysis of the deposited data

How the results depend on the processing

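Alternatives were DESeq2, its size factors in edgeR, no factors beyond library size, a fit of just the 4 samples compared, other filters, thinning, leaving out mitochondrially encoded genes, a replicate block, adding reads of copies, a 2-fold limit and leaving out each library, where a lone library is assumed to vary like the other groups. Of 346 estimates for members and other glycolysis genes, 327 kept their direction and call, 9 lost the call, 6 gained it and 4 changed sign. Pkm kept both in the 15 alternatives of each comparison. No member had at least 10 reads in every sample, so that filter gave no value.

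Members called by KO numbered 1 in place of 2 after thinning and 1 without mitochondrially encoded genes, since Eno1 then failed the filter. After thinning, 2 of 3 members kept the order of the groups. In KO + LEENE against WT + GFP, 1 other glycolysis gene was called with only the 4 samples compared, where 1 was tested. Leaving out each library gave 1 to 2 there, 2 to 3 members called by KO, 3 to 4 in KO + LEENE against KO + GFP and 3 to 4 members with the order kept.

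The log2 fold changes of Gpi1 by KO without the first WT + GFP library (0.0544) and of Aldoa by KO after thinning (0.173) changed sign. That of Eno3 in KO + LEENE against WT + GFP did so with library size only (0.25) and without the second KO + LEENE library (0.556). None of these 4 estimates was called. Among the fits that left out 1 library, the lowest value was -2.16 for Gpi1 and -2.94 for Eno3, and thinning gave -2.68 for Gpi1. Gpi1 was at the floor in KO + GFP, and Eno3 in both groups compared, so these are fitted values and give no size of a change. With library size only, the median over all genes in KO + LEENE against KO + GFP went from -0.0102 to 1.07 (log2). This shift is about the one that took Eno1 there to -0.317. The same setting made calls of Gpi1 by KO (-1.95) and Eno1 in KO + LEENE against WT + GFP (1.9). With it, 59.9% of DEGs by KO, 32.9% in KO + LEENE against KO + GFP and 40.1% in KO + LEENE against WT + GFP were lower.

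Replicate numbers are those of the sample titles. Deviations of same-numbered libraries correlated at 0.0306, 0.0138 and 0.0192 between groups, so they share only a number. With the replicate block, members called numbered 2, 3 and 3 in the 3 comparisons where the fit without it gave 2, 4 and 3. The call that ended was Eno1 in KO + LEENE against KO + GFP. At these depths, small differences between groups were not detectable for the 6 untested members.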
